A study of Caenorhabditis elegans with 8 samples.

Results

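The superoxide dismutases, catalases and peroxiredoxins are enzymes that remove superoxide or hydrogen peroxide by chemical reaction. The genes described here are the 5 superoxide dismutase genes sod-1 to sod-5, the 3 catalase genes ctl-1 to ctl-3 and the peroxiredoxin genes prdx-2 and prdx-3, 10 genes chosen by symbol among 26787 named genes. Each had exactly 1 probe on the array, and that probe named no other gene. Their transcript levels were read on 8 arrays (Affymetrix C. elegans Gene 1.1 ST), 1 for each synchronized population of whole wild type, N2 Bristol worms. The worms were grown at 20 °C on NGM plates with OP50 E. coli and aged without further intervention. The groups were day 1 (3 arrays), day 6 (3 arrays) and day 12 (2 arrays) of adulthood, and age was the only labelled difference between them.

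Superoxide dismutases turn superoxide into hydrogen peroxide and oxygen. Catalases split hydrogen peroxide into water and oxygen, and peroxiredoxins reduce it with electrons that come from thioredoxin. In C. elegans the dismutases are divided among compartments: sod-1 and sod-5 encode cytosolic copper/zinc enzymes, sod-2 and sod-3 mitochondrial manganese enzymes, and sod-4 the extracellular copper/zinc enzyme, made in secreted and membrane-bound forms. The sod-3 gene is widely used as a reporter of the FOXO transcription factor DAF-16, the output of insulin signalling. The ctl-1 product is a cytosolic catalase and the ctl-2 product the peroxisomal catalase. The 3 catalase genes lie next to each other on chromosome II in the RefSeq assembly WBcel235, in the order ctl-2, ctl-1, ctl-3, with no other annotated gene between them. They are similar in sequence, so whether their probes separate the copies is uncertain, and 1 probe per gene does not tell transcript isoforms apart. The prdx-2 and prdx-3 products are the cytosolic and the mitochondrial peroxiredoxin.

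Values are log2 signals as deposited, and a mean under 3 is treated as near the floor of the signal, as it was for 63.2% of the 26761 probes tested. Signals of different probes are not comparable as amounts, so each gene is set only against itself at other ages. The labels call the replicates biological and say nothing further of their origin, so p-values measure the spread between these arrays. No batch or date is labelled, so age and any batch shared by a day's arrays cannot be told apart. In whole worms, fewer cells of a type and less RNA per cell cannot be told apart. Tissue markers moved with age. The summed signal (linear scale) of 8 body wall muscle markers was 4820 to 6169 at day 1, 1335 to 2751 at day 6 and 530 to 564 at day 12, and that of 8 intestine markers was 1894 to 2573, 1031 to 1208 and 724 to 961. The sum of 8 neuron markers was 1145 to 1371 at day 1, 1325 to 1421 at day 6 and 1789 to 1819 at day 12, and that of 8 embryo markers was 54 to 61, 70 to 86 and 312 to 355. Over 8 germline and oocyte markers the sum was 11459 to 12107, 12246 to 12517 and 8483 to 10192, over 8 hypodermis and cuticle markers 2340 to 4078, 1023 to 2119 and 884 to 1036, and over 8 sperm markers 36 to 39, 40 to 49 and 61 to 65. By the test used below, at day 12 against day 1, 8 of 8 muscle and 6 of 8 intestine markers fell (1 intestine marker rose), 1 of 8 germline markers fell, 2 of 8 hypodermal markers rose and 2 fell, and 1 of 8 neuron, 4 of 8 embryo and 3 of 8 sperm markers rose. The intestine marker that rose was mtl-2, with mean log2 signals of 7.57, 8.52 and 9.08 at days 1, 6 and 12. Its signal held up the intestine sum at day 12. Over the 8 intestine markers the median log2 difference was -2.02 at day 12 against day 1. The neuron sum was mostly snb-1, which made up 78.7 to 88.7% of it on every array, and without it the sum was 204 to 292 at day 1, 172 to 194 at day 6 and 202 to 206 at day 12. In the embryo sum hch-1 made up 68.4 to 69.3% at day 12, and without it the sum was 48 to 55, 54 to 58 and 99 to 109. In the hypodermal sum col-140 made up 49.1 to 65.1% at day 1 and 1.9 to 6.8% at day 12. Without col-140 that sum was 1189 to 1424, 801 to 1033 and 867 to 966, so it did not fall further after day 6. The hypodermal markers dpy-7, rol-6 and bli-1 and the neuronal marker unc-31 were near the floor at all ages. So were the embryonic marker end-1 and 5 of the 8 sperm markers. All 8 sperm markers were near it at days 1 and 6, as were 6 of 8 embryo markers at day 1 and 4 at day 6.

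Among the 10 genes, sod-4 rose about 5-fold by day 12. The sod-3 gene fell after day 6 at a low signal, in a call that rested on few arrays. The other 8 passed the test in no comparison of days. A gene was called where its adjusted p was under 0.05 in limma's moderated test, with Benjamini-Hochberg adjustment over all probes tested. At day 6 against day 1, limma called 0 of the 10 genes, and 1, sod-4, had an unadjusted p under 0.05. Of all probes 3.85% were called there, 2.18% higher and 1.66% lower, and of the 9861 probes with a mean of at least 3, which hold 9 of the 10 genes, 9.36% were called. Between day 12 and day 6, 1 gene rose and 1 fell, where 9.05% of all probes were called, 6.36% higher and 2.69% lower, and 18.3% of the brighter probes. Over the whole span, day 12 against day 1, 1 gene rose and 0 fell, where 14.1% of all probes were called, 9.58% higher and 4.52% lower, and 29.2% of the brighter probes. The median log2 difference over the 10 genes was 0.01 at day 6 against day 1, -0.18 at day 12 against day 6 and -0.19 at day 12 against day 1. Over all probes tested it was 0.02, -0.03 and -0.01, and over the brighter probes it was 0.12, -0.03 and 0.11. The medians of the brighter probes depend on the scaling: quantile normalization moved the last by -0.133 and cyclic loess by -0.109, and cyclic loess moved the first by -0.116. The split of all calls also depended on it, with 584 higher of 1029 at day 6 against day 1 as deposited, 438 of 983 after quantile normalization and 403 of 1003 after cyclic loess. For day 12 against day 1 it was 2564 of 3773, 1963 of 3599 and 2139 of 3723.

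**Figure D1:**
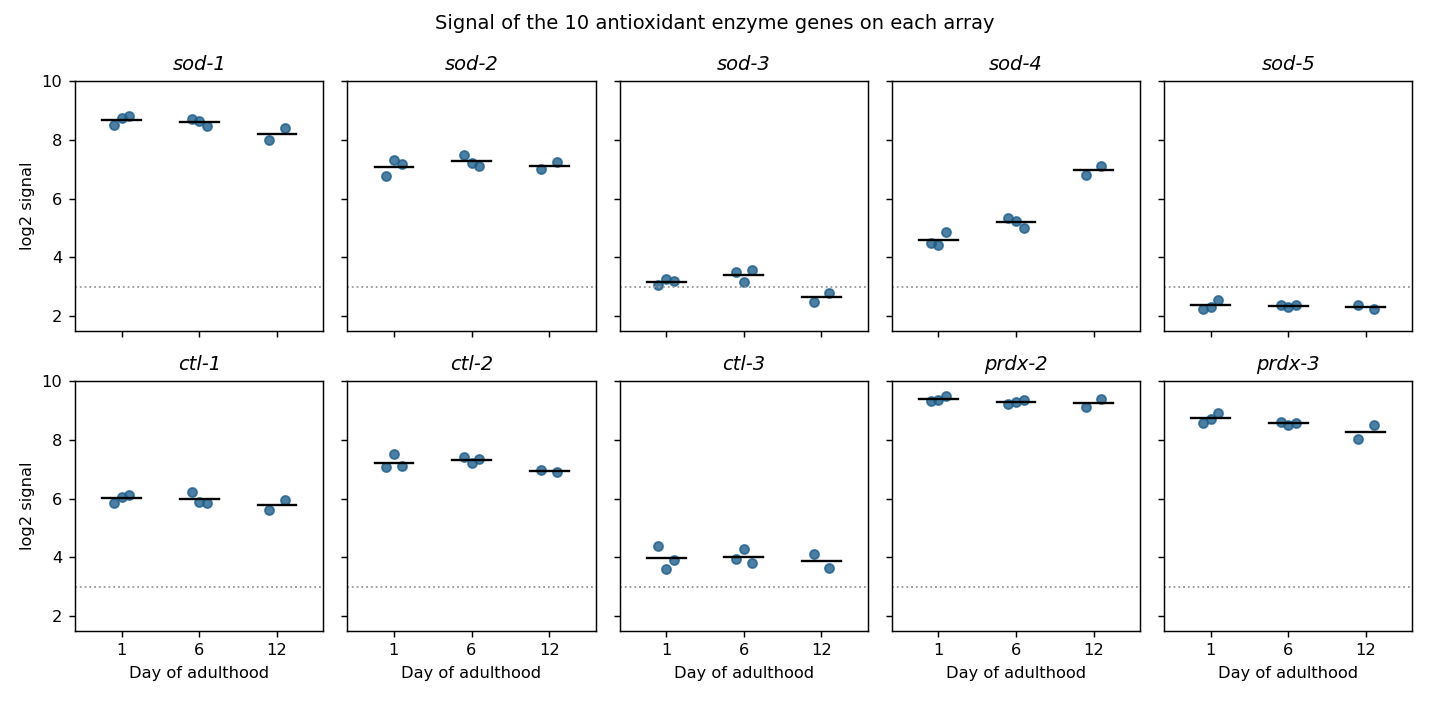
Log2 signal (y axis) of each gene on every array (points) by day of adulthood (x axis), with the mean of each day as a bar and the level treated as near the floor, 3, as a dotted line. The day 12 arrays of sod-4 lie at 6.80 and 7.12, above all its earlier arrays, and sod-5 stays between 2.23 and 2.54.

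The extracellular dismutase gene sod-4 had signals of 4.49, 4.43 and 4.87 on the day 1 arrays, 5.32, 5.24 and 5.0 on the day 6 arrays, and 6.80 and 7.12 on the day 12 arrays. The arrays of the 3 ages did not overlap, and each later age was higher. Its mean was 4.59 ± 0.24 at day 1 (SD, n = 3), 5.19 ± 0.17 at day 6 (n = 3) and 6.96 ± 0.22 at day 12 (n = 2). Day 12 was 5.14-fold above day 1, a log2 difference of 2.36 ± 0.19 (SE) with a 95% interval of 1.94 to 2.79 (limma, adjusted p = 2.19e-05). That difference was higher than those of 97.1% of the probes with a mean of at least 3. Most of it fell after day 6: day 12 was 3.41-fold above day 6, a log2 difference of 1.77 ± 0.19 (adjusted p = 0.000245). Both calls held in all 19 alternative fits of each comparison, with log2 differences of 2.20 to 2.52 and 1.61 to 1.93 and adjusted p from 4.2e-06 to 0.000761 and from 9.05e-05 to 0.00534.

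The first interval gave sod-4, at day 6 against day 1, a log2 difference of 0.59 ± 0.17 that did not pass the test (adjusted p = 0.0966). It did pass when the dim probes were left out of the adjustment (adjusted p = 0.0456), and over all its alternatives the adjusted p lay between 0.0456 and 0.618. No other gene of the 10 had arrays at day 6 entirely above those at day 1, and 14.3% of all probes did, while 0 of the 10 lay entirely below, as 8.9% of all probes did. The difference after day 6 minus the difference before day 6 was 1.18 ± 0.31 for sod-4, on the log2 scale, and also missed the threshold (adjusted p = 0.0732). With quantile normalization it was 1.26 (adjusted p = 0.0434), with cyclic loess 1.32 (adjusted p = 0.0343), and without the dim probes 1.18 (adjusted p = 0.0428). Across its alternatives that adjusted p ran up to 0.266. In this contrast 0 of the 10 genes were called, against 3.46% of all probes tested, 2.22% of them upward. The embryo and sperm marker sums given above were highest at day 12, as sod-4 was, and so was the neuron sum, but only with snb-1 in it. Most sperm markers were near the floor at every age, and most embryo markers at day 1. The part of these tissues in the rise of sod-4 was not tested.

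The dismutase genes for the inside of the cell showed other courses. The mitochondrial, DAF-16-responsive sod-3 had signals of 3.06, 3.25 and 3.20 on the day 1 arrays, 3.49, 3.14 and 3.57 on the day 6 arrays, and 2.48 and 2.80 on the day 12 arrays. All of these lie close to the floor, and the day 12 arrays were below every earlier array. The mean was 3.17 ± 0.10 at day 1 (SD, n = 3), 3.40 ± 0.23 at day 6 (n = 3) and 2.64 ± 0.22 at day 12 (n = 2). Day 12 was lower than day 6 by a log2 difference of -0.76 ± 0.18 (SE), or 1.70-fold, with a 95% interval of -1.17 to -0.36 (limma, adjusted p = 0.0241). As the day 12 mean is near the floor, the fall may be understated, and the interval also leaves a smaller fall possible.

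The call of sod-3 rested on few arrays. Leaving out 1 array ended it for either day 12 array (adjusted p = 0.173 for replicate 1 and 0.0502 for replicate 2) and for replicates 1 and 3 of day 6 (0.0798 and 0.0892). It was lost with an intensity trend (0.0617), a replicate block (0.08) or a required change of 1.2-fold (0.129). Its log2 difference stayed negative throughout, from -0.95 to -0.60. Set against day 1, day 12 had a sod-3 difference of -0.53 ± 0.18 that did not pass (adjusted p = 0.0858), but passed with quantile normalization (-0.69, adjusted p = 0.0236), cyclic loess (-0.73, 0.0192) and without the dim probes (-0.53, 0.043). Its difference at day 6 against day 1 was 0.23 ± 0.16 (adjusted p = 0.543). The marker sums of body wall muscle, intestine, and germline and oocytes were also lowest at day 12, and that of hypodermis and cuticle was lower there than at day 1, and their part in the fall of sod-3 was not tested.

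The main mitochondrial dismutase gene sod-2, the paralogue of sod-3, had signals of 6.77, 7.30 and 7.19 at day 1, 7.49, 7.22 and 7.09 at day 6, and 7.0 and 7.24 at day 12. The arrays of the 3 ages overlapped. Its log2 difference at day 12 against day 1 was 0.04 ± 0.20, with a 95% interval of -0.41 to 0.48 (adjusted p = 0.943), and it turned slightly negative with quantile normalization (-0.09) and cyclic loess (-0.06).

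The main cytosolic dismutase gene sod-1 had signals of 8.51, 8.73 and 8.81 at day 1, 8.70, 8.65 and 8.46 at day 6, and 8.0 and 8.38 at day 12. The day 12 arrays were below all others, by a narrow margin for replicate 2. Its log2 difference at day 12 against day 1 was -0.49 ± 0.18 (adjusted p = 0.104), which passed in only 1 of 19 alternatives, the intensity trend with a robust prior (adjusted p = 0.0423). Against day 6, day 12 differed by -0.41 ± 0.18 (adjusted p = 0.228).

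The second cytosolic dismutase gene, sod-5, a gene known for its expression in the dauer larva, was near the floor on all arrays. Its signals were 2.23, 2.31 and 2.54 at day 1, 2.38, 2.31 and 2.36 at day 6, and 2.37 and 2.23 at day 12. No order of the ages can be read from values at that level, and its differences between days were -0.01 for day 6 against day 1, -0.05 for day 12 against day 6 and -0.07 over the whole span, on the log2 scale.

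**Figure D2:**
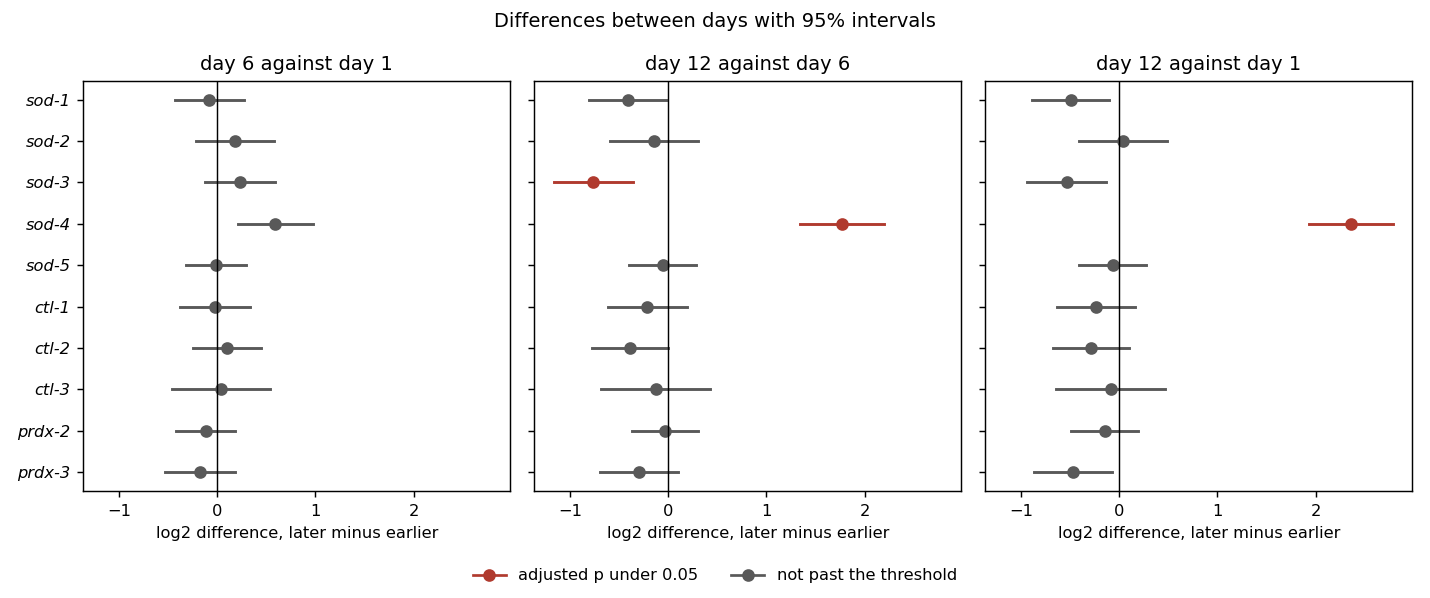
Log2 difference between days (x axis, later minus earlier; points) with 95% intervals (bars) for each gene (y axis) in the 3 comparisons, in red where the adjusted p was under 0.05. The interval of sod-4 at day 12 against day 1, 1.94 to 2.79, lies above the upper ends of the other 9 genes, of which the highest is 0.48 for sod-2.

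The 3 catalase genes passed the test in no comparison. The peroxisomal catalase gene ctl-2 had signals of 7.07, 7.50 and 7.11 at day 1, 7.42, 7.21 and 7.36 at day 6, and 6.96 and 6.92 at day 12. Its day 12 arrays were below all earlier arrays. The log2 difference was -0.39 ± 0.17 at day 12 against day 6 (adjusted p = 0.243) and -0.29 ± 0.17 at day 12 against day 1 (adjusted p = 0.361). The cytosolic catalase gene ctl-1 had signals of 5.86, 6.06 and 6.14 at day 1, 6.22, 5.89 and 5.86 at day 6, and 5.62 and 5.94 at day 12. Its ages overlapped, and its difference at day 12 against day 1 was -0.24 ± 0.18 (adjusted p = 0.487). The third catalase gene, ctl-3, varied most between arrays of an age, with 4.37, 3.6 and 3.92 at day 1, 3.94, 4.28 and 3.79 at day 6, and 4.11 and 3.64 at day 12. Its SE of 0.25 at day 12 against day 1 was the largest of the 10 genes, and its 95% interval there was -0.64 to 0.47. Between them the catalase genes had day 12 minus day 1 differences of -0.29 to -0.09.

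The peroxiredoxin genes passed in no comparison either. The cytosolic prdx-2 had signals of 9.33, 9.37 and 9.49 at day 1, 9.21, 9.27 and 9.37 at day 6, and 9.13 and 9.38 at day 12. These overlapped between ages, and its difference at day 12 against day 1 was -0.15 ± 0.15 with a 95% interval of -0.49 to 0.19 (adjusted p = 0.627). The mitochondrial prdx-3 had signals of 8.58, 8.72 and 8.92 at day 1, 8.59, 8.52 and 8.59 at day 6, and 8.03 and 8.50 at day 12. The day 12 arrays were below all others, replicate 2 by a narrow margin. Its difference was -0.47 ± 0.18 at day 12 against day 1 (adjusted p = 0.129) and -0.30 ± 0.18 at day 12 against day 6 (adjusted p = 0.431).

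For the 8 genes that were never called, the intervals say how large a change in signal these arrays leave possible. This does not extend to the transcript of sod-5, which was near the floor at all ages. Between day 12 and day 1 the differences of the 8 genes ran from -0.49 to 0.04 on the log2 scale. Their 95% intervals reached from -0.88 for sod-1 to 0.48 for sod-2, that is, up to 1.85-fold lower and 1.40-fold higher. In the comparison of day 6 with day 1 the intervals reached from -0.53 for prdx-3 to 0.58 for sod-2, and at day 12 against day 6 from -0.80 for sod-1 to 0.43 for ctl-3. The widest span between day means was 2.36 for sod-4, then 0.76 for sod-3, 0.49 for sod-1, 0.47 for prdx-3 and 0.39 for ctl-2, and 0.07 to 0.24 for the others. The day 12 arrays of 4 of the 10 genes, sod-1, sod-3, ctl-2 and prdx-3, lay wholly below those of day 1 and also below those of day 6. Among all probes 17.4% did so against day 1 and 20% against day 6, each comparison taken alone. The share below both days and the shares among the brighter probes were not computed. Wholly above were those of sod-4 alone of the 10 in both comparisons, and among all probes 21.1% against day 1 and 18.1% against day 6. The closest courses within the group were those of sod-1 and prdx-3, whose signals, each taken from its own day 1 mean, differed by 0.10 as a root mean square over the 8 arrays.

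By the same measure, the genes outside the group with a mean of at least 3 that came closest to sod-4 were nex-2, an annexin gene, at 0.123, F35D2.3 at 0.124 and C08A9.10 at 0.169. The median over 9607 candidate genes was 1.2. The signals of nex-2 were 5.4, 5.18 and 5.57 at day 1, 6.12, 6.03 and 6.00 at day 6, and 7.80 and 7.82 at day 12. Like sod-4 it stood higher at each later age without overlap, and its day 12 minus day 1 difference was 2.43, beside 2.34 for F35D2.3 and 2.31 for C08A9.10. Closest to sod-3 were F56A11.5 at 0.119, the cyclin B gene cyb-2.1 at 0.121 and glct-6 at 0.123, against a median of 0.49. Their day 6 minus day 1 differences were 0.28, 0.16 and 0.34, beside 0.23 for sod-3. Their day 12 minus day 6 differences were -0.79, -0.66 and -0.74, beside -0.76. All these genes were picked for closeness on the same 8 arrays, so the likeness follows from the choice and is not a separate result.

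**Figure D3:**
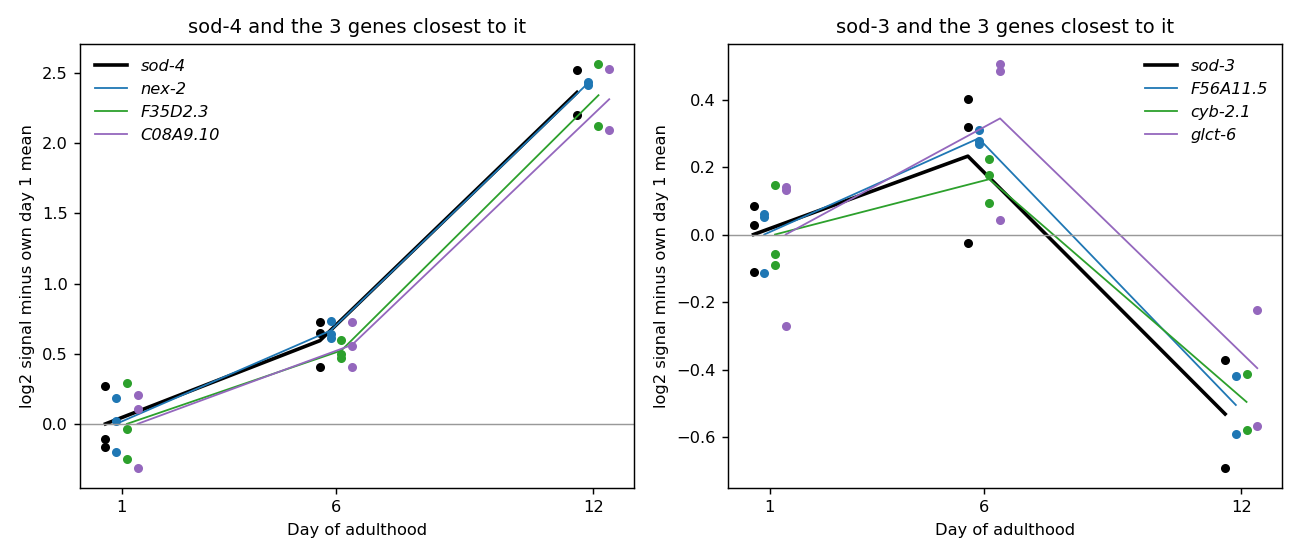
Log2 signal minus the gene's own day 1 mean (y axis) by day (x axis) for sod-4 (left) and sod-3 (right) in black, each with the 3 genes closest to it in colour; points are arrays, lines join day means, and genes are set slightly apart on the x axis. The y axes differ: sod-4 ends 2.36 above its day 1 mean, sod-3 0.53 below.

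Other genes of peroxide and redox metabolism were read from 6 lists of 77 genes in all. Among prdx-6, the third peroxiredoxin gene, and the 8 glutathione peroxidase genes, 0 rose and 2 of 9 fell at day 12 against day 1, where 4.52% of all probes fell. Of the brighter probes, which hold 6 of the 9, 29.2% were called there in either direction. The list median was -0.17, beside -0.01 over all probes and 0.11 over the brighter ones. The glutathione peroxidase gene gpx-7 had signals of 3.98, 3.77 and 4.80 at day 1, 2.82, 3.08 and 2.85 at day 6, and 1.99 and 2.09 at day 12. The ages did not overlap and each later one was lower, near the floor from day 6 on. Its log2 difference at day 12 against day 1 was -2.14 ± 0.27 (adjusted p = 0.000364), and the floor may make it too small in size. The other gene that fell was gpx-5 (-1.20 ± 0.29, adjusted p = 0.0199), which was lost without day 1 replicate 1 (0.0575) or day 12 replicate 1 (0.192). The prdx-6 gene had a difference of 0.08 ± 0.19 (adjusted p = 0.851). By day 6, gpx-7 was the only gene of the 9 called lower against day 1 (-1.27 ± 0.24, adjusted p = 0.0186), a call lost without day 6 replicate 1 (0.0862) or day 6 replicate 3 (0.0699). In that comparison 1.66% of all probes were called lower, and 9.36% of the brighter ones were called in either direction. At day 12 against day 6, limma called 0 of the 9, and 2 had an unadjusted p under 0.05.

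In the thioredoxin and glutaredoxin list, 2 of 14 rose and 0 fell at day 12 against day 1, where 9.58% of all probes rose and 4.52% fell. Of the brighter probes, which hold 12 of the 14, 29.2% were called there in either direction. With quantile normalization or cyclic loess 2 rose and 2 fell, with median centring 2 and 1, with an intensity trend 2 and 1, and over the brighter probes 3 and 1 of 12. The list median was 0.08 as deposited but -0.09 after quantile normalization, -0.06 after cyclic loess and -0.03 over the brighter probes. The thioredoxin gene trx-3 had signals of 2.06, 2.55 and 2.46 at day 1, 2.34, 2.49 and 3.19 at day 6, and 4.72 and 5.80 at day 12. It was near the floor until day 6 and above it on the day 12 arrays. Its difference at day 12 against day 1 was 2.91 ± 0.33 (adjusted p = 0.000209), and the floor may make it too small. The thioredoxin reductase gene trxr-1 had signals of 5.17, 5.24 and 4.70 at day 1, 5.83, 5.63 and 5.84 at day 6, and 6.13 and 5.99 at day 12. It rose at day 12 against day 1 (1.02 ± 0.19, adjusted p = 0.00426). Both calls held without any 1 array. Against day 1, trxr-1 was also called at day 6 (0.73 ± 0.17, adjusted p = 0.0424), but in no fit with an array left out (0.053 to 0.163) and not with quantile (0.143) or cyclic loess normalization (0.145) or the replicate block (0.0735).

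Of the 3 genes of glutathione synthesis and recycling, the synthetase gene gss-1 (-0.57 ± 0.16, adjusted p = 0.0342) and the reductase gene gsr-1 (-0.56 ± 0.15, 0.0264) fell at day 12 against day 1. The list kept at most 1 of these calls in each fit with an array left out and 0 with the replicate block (0.0845 for gss-1 and 0.0868 for gsr-1). The ligase gene gcs-1, a standard target of the stress factor SKN-1, had a difference of 0.29 ± 0.14 (adjusted p = 0.251). At day 12 against day 1, 4.52% of all probes fell. Of the brighter probes, which hold all 3 genes, 29.2% were called there in either direction. A further list held the dual oxidase genes bli-3 and duox-2, heme peroxidase genes and respiratory chain genes with known links to superoxide. In it 0 of 12 rose and 3 fell at day 12 against day 1, beside 4.52% of all probes that fell and 29.2% of the brighter probes called in either direction, a class that holds 10 of the 12. These were the peroxidase gene skpo-3 (-1.37 ± 0.17, adjusted p = 0.000319), the complex I gene gas-1 (-0.80 ± 0.16, 0.00663) and the complex II cytochrome b gene mev-1 (-0.60 ± 0.16, 0.0275). The call of gas-1 was lost without day 12 replicate 1 (0.0616), that of mev-1 without either day 12 array (0.157 and 0.0741), without replicates 2 or 3 of day 1 (0.0791 and 0.0577) and with the replicate block (0.0689), while skpo-3 was called in every such fit.

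**Figure D4:**
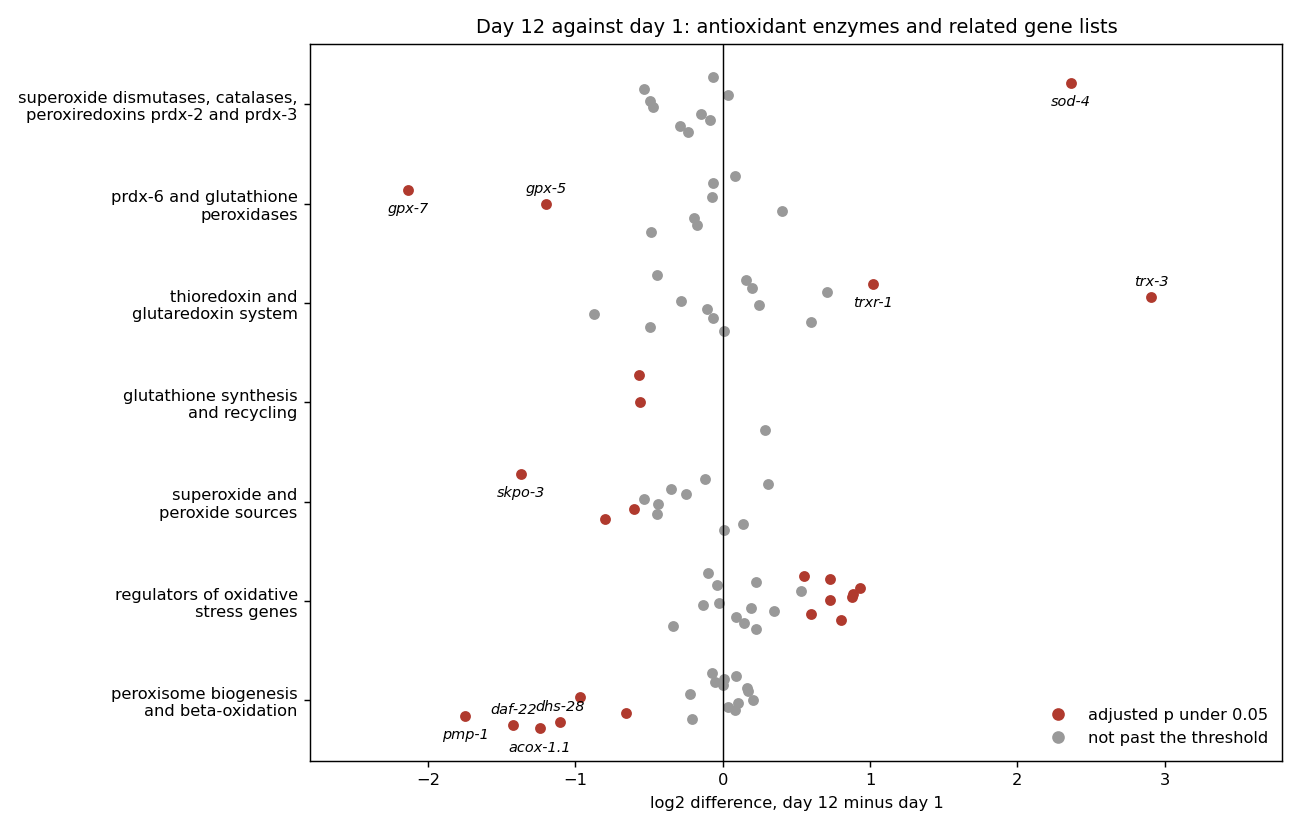
Log2 difference at day 12 against day 1 (x axis) of each gene (points) in the antioxidant enzyme group and 6 related gene lists (y axis), in red where the adjusted p was under 0.05 and named where it also exceeded 1 in size. The largest rises are trx-3 at 2.91 and sod-4 at 2.36, and the largest fall is gpx-7 at -2.14.

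Among 20 regulators of oxidative stress genes, 8 rose and 0 fell at day 12 against day 1, with a median of 0.29. Of all probes 9.58% rose, and of the brighter probes, which hold 18 of the 20, 29.2% were called in either direction, with a median of 0.11. The p38 MAP kinase gene pmk-1 and its upstream kinase gene sek-1, which act on SKN-1, had differences of 0.89 ± 0.18 (adjusted p = 0.00673) and 0.93 ± 0.24 (0.029). The gene skn-1 itself had 0.73 ± 0.17 (0.0171), the insulin receptor gene daf-2 0.60 ± 0.15 (0.0249), and the insulin pathway kinase genes pdk-1 and akt-2 0.88 ± 0.17 (0.00519) and 0.80 ± 0.19 (0.0168). The means of akt-2 lay close to the floor, at 2.42 at day 1, 2.93 at day 6 and 3.22 at day 12. Without day 12 replicate 1 the akt-2 difference was 0.52. Quantile normalization ended the day 12 against day 1 calls of sek-1 (adjusted p = 0.0883), daf-2 (0.0741) and akt-2 (0.0554). Cyclic loess ended those of sek-1 (0.0808) and daf-2 (0.0604). The sek-1 call was also lost with the replicate block (0.07) and without day 1 replicate 3 (0.0606). Without day 1 replicate 2, those of skn-1 (0.0541) and daf-2 (0.0654) were lost. The gene of the transcription factor acting on sod-3, daf-16, had signals of 7.17, 7.34 and 7.72 at day 1, 7.35, 7.41 and 7.53 at day 6, and 7.72 and 7.28 at day 12, which overlapped. Its difference at day 12 against day 1 was 0.09 ± 0.20 (adjusted p = 0.849). Many of the 8 rises depended on single arrays: the list had 1 call without day 12 replicate 1 and 4 when replicate 2 of day 12 or of day 1 was left out, 4 after quantile normalization, 5 after cyclic loess and 5 with the replicate block. By day 6, 2 of the 20 were called against day 1, pdk-1 (0.92 ± 0.15, adjusted p = 0.0107) and daf-2 (0.61 ± 0.14, 0.0372), and 0 were without day 6 replicate 1. In that comparison 2.18% of all probes were called higher, and 9.36% of the brighter ones were called in either direction. The call of daf-2 was also lost with quantile normalization (0.104), cyclic loess (0.109) and the replicate block (0.0725).

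The peroxisome is where the ctl-2 catalase works, beside the oxidases that make hydrogen peroxide. Of 19 genes of peroxisome biogenesis, transport and beta-oxidation, 0 rose and 6 fell at day 12 against day 1, where 4.52% of all probes fell. Of the brighter probes, which hold 16 of the 19, 29.2% were called there in either direction. The list did not fall as a whole: 9 of its differences were positive and 10 negative. Its median was -0.05, beside -0.01 over all probes and 0.11 over the brighter ones. It was -0.25 after quantile normalization and -0.18 after cyclic loess. Of the genes that fell, the transporter gene pmp-1 (-1.75 ± 0.27, adjusted p = 0.00132) and the thiolase gene daf-22 (-1.42 ± 0.22, 0.00152) had the largest differences. Next were the acyl-CoA oxidase gene acox-1.1 (-1.24 ± 0.24, 0.00565) and the dehydrogenase gene dhs-28 (-1.11 ± 0.16, 0.000993). The pmp-1 mean at day 12 was under 3, so its fall may be understated. The call of acox-1.1 was lost without day 12 replicate 2 (0.0749), and the other 3 were called in all fits with an array left out. By day 6, 5 of the 19 were lower than at day 1 by the test, against 1.66% of all probes called lower and 9.36% of the brighter ones called in either direction, and pmp-1 (-1.07 ± 0.24, 0.0362), acox-1.1 (-1.05 ± 0.21, 0.0272), daf-22 (-0.90 ± 0.20, 0.036) and the peroxin gene prx-11 (-0.83 ± 0.15, 0.0145) had the largest differences. That count was 0, 3 and 1 without day 6 replicates 1, 2 and 3, 2 without replicate 1 or replicate 3 of day 1, and 3 with the replicate block. The prx-11 mean at day 6 was 2.61, under 3, so its fall from day 1 to day 6 may be understated. At the same step ctl-2 had a difference of 0.10 ± 0.15 (adjusted p = 0.819), which turned to -0.03 with quantile normalization and -0.05 with cyclic loess. The intestine marker sum was lower at days 6 and 12 than at day 1 as well, and its part in the falls called in this list was not tested.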

How the data were processed

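RNA from whole N2 populations was measured on 8 arrays. The values are log2 signals processed and deposited by the authors: they ran from 0.68 to 13.23, with array medians of 2.32 to 2.40. The log base was inferred from that range, and the sources used here do not name the normalization or the software. There are no detection calls, and precision is limited by the number of arrays. Genes were named from GEO's platform annotation, which gave 1 symbol to 26281 probes, several to 480 and none to 2556. The 26761 probes with a symbol were fitted with a mean per day over all 8 arrays in limma 3.58.1 under R 4.3.3 (lmFit and eBayes, two-sided, 5 residual and 5.07 prior degrees of freedom), with Benjamini-Hochberg adjustment over these probes. The brightest probe stood for each gene.

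The 10 genes and the lists were chosen with earlier results of these data known. All 10 were named, with up to 4 called genes of largest difference per list and comparison, daf-16, skn-1, daf-2 and gcs-1, and the 3 closest genes per called member. The fit was tested on simulated data. The 12 kinds of alternative are given in the closing section.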

Additional observations from a re-analysis of the deposited data

How the results depend on the processing

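Of the 10 genes, 0 were called at day 6 against day 1, 2 at day 12 against day 6, 1 at day 12 against day 1 and 0 in the contrast of the intervals. Leaving out the dim probes gave 1, 2, 2 and 1 in that order. An intensity trend with a robust prior gave 1 at day 12 against day 6 and 2 at day 12 against day 1. Quantile normalization and cyclic loess each gave 2 at day 12 against day 1 and 1 in the contrast of the intervals. The replicate block and the 1.2-fold minimum each gave 1 at day 12 against day 6. Without each array in turn the counts were 0 to 0, 1 to 2, 1 to 1 and 0 to 0. Median centring, all probes, array weights, the mean of a gene's probes and the fit of the compared days alone, which cannot give the contrast of the intervals, left these 4 counts as they were. The genes gained or lost were sod-1, sod-3 and sod-4, as given above; the causes were not tested.

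Signs turned only for differences that were not called. At day 6 against day 1 these were ctl-2 (-0.03 quantile, -0.05 cyclic loess), ctl-3 (-0.01, -0.02) and daf-16 (-0.11, -0.13). At day 12 against day 6 they were prdx-2 (0.03 cyclic loess, 0.01 replicate block), daf-2 (0 quantile, 0.03 cyclic loess, 0.04 replicate block) and gcs-1 (-0.01 median centring). At day 12 against day 1 they were sod-2 (-0.09 quantile, -0.06 cyclic loess) and daf-16 (-0.01 quantile). In the contrast of the intervals they were ctl-1 (0) and prdx-3 (0.05) with cyclic loess and sod-5 (0) with the replicate block. Without each array in turn, signs turned at day 6 against day 1 for ctl-1 (-0.14 to 0.04), ctl-3 (-0.14 to 0.24), sod-5 (-0.08 to 0.08) and daf-16 (-0.10 to 0.18). At day 12 against day 6 they turned for ctl-3 (-0.36 to 0.11), prdx-2 (-0.16 to 0.09), sod-5 (-0.13 to 0.02), daf-16 (-0.16 to 0.29), daf-2 (-0.13 to 0.11) and gcs-1 (-0.06 to 0.09). At day 12 against day 1 they turned for ctl-3 (-0.32 to 0.15), sod-2 (-0.12 to 0.16), sod-5 (-0.14 to 0.02) and daf-16 (-0.13 to 0.31). In the contrast of the intervals they turned for ctl-1 (-0.34 to 0.04), ctl-3 (-0.40 to 0.11), prdx-2 (-0.04 to 0.21), prdx-3 (-0.36 to 0.11) and sod-5 (-0.13 to 0.03).

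Over all probes, the 1029 calls of day 6 against day 1 became 667 and 649 without day 1 replicates 1 and 2, 281, 670 and 425 without day 6 replicates 1, 2 and 3, 335 with the 1.2-fold minimum and 1557 of the brighter probes. The 2423 of day 12 against day 6 became 1371 without day 12 replicate 2 and 1562 with the minimum, and the 3773 of day 12 against day 1 became 2454 and 2408. The 927 in the contrast of the intervals became 432, 543 and 431 without day 6 replicates 1, 2 and 3 and 553 without day 12 replicate 2. Same-numbered arrays of different days deviated from their day means with correlations of -0.114 to 0.112, so the numbers were not taken as pairs; the replicate block lost the call of sod-3 and of the pathway genes named above with it. Small changes near the floor are beyond these arrays.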

Other observations

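Single arrays stood on the same side for most of the 10 genes. Day 12 replicate 1 was below day 12 replicate 2 for 7 of 10, and 49.9% of probes with a mean of at least 3 had that order. Day 1 replicate 1 was the lowest of its day for 8 of 10, against 51.3% of those probes, and day 6 replicate 1 the highest of its day for 7 of 10, against 43.5%.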
